A study of Sus scrofa with 21 samples.

Results

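Axonemal dynein heavy chains are the motor subunits that bend the sperm tail, and their transcripts were examined in testis RNA of boars chosen for high or low sperm hyperactivity. The 10 listed chains were DNAH1, DNAH2, DNAH3, DNAH6, DNAH7, DNAH8, DNAH10, DNAH12, DNAH14 and DNAH17, found among the 25880 Ensembl genes of the count files by symbol, and 7 of the 10 had a row there. DNAH3, DNAH6 and DNAH8 had no row under the identifier paired with their symbol and were not analysed here.

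The axoneme of a sperm tail is a ring of microtubule doublets around a central pair. Outer dynein arms supply much of the power of the beat and inner arms shape the bend, and each arm walks along the neighbouring doublet with the ATPase heads of its heavy chains. The transcripts are made in the testis, mostly in meiotic and haploid germ cells, while the protein works in the finished spermatozoon.

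Testis RNA was sequenced with 1 library per boar, in 13 Landrace and 8 Duroc boars. Contrast (i) set 4 Landrace boars labelled high for hyperactivity on day 0 (L5 to L8) against 4 labelled low (L1 to L4). Contrast (iii) set 3 Landrace boars labelled high for the change in hyperactivity during 96 h in storage (L7, L13 and L15) against 4 labelled low (L2, L9, L10 and L12), so that L2 and L7 take part in both. Contrast (ii) set 5 Duroc boars labelled high (D1 to D5) against 3 labelled low (D6, D7 and D9), and the breeds were also compared with each other. All boars had served artificial insemination and gave their tissue at slaughter, and the labels give no ages. The label of a group describes the ejaculates of a boar and not the tissue that was sequenced. All directions rest on those labels, since no gene in the counts marks a boar as high or low. The study's text counts more genes up than down in its high group of contrast (i). By the labels here, 15.8% of genes were lower and 4.82% higher in that group. The study's text names DNLZ as most up in that group, but its table of mean counts has DNLZ lower there. That table also has the protamine PRM1 lower there, as the counts here do by label (log2 fold change -0.70). The study's table of boars gives L1 to L4 as low and L5 to L8 as high, as the labels do. Of these 8 boars, L8 is the deepest and L1 the shallowest by read depth in that table. The same holds here, with 97059970 and 53644587 counted reads. For contrast (i) the labels thus follow both of these tables, and the study's text differs from them. Whether the names high and low were exchanged before those tables were made could not be checked. Every sign below holds for the labels as deposited.

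Reads counted on genes ranged from 41358671 to 125576407 per library, and the 7 chains had between 3851 and 42745 reads each per boar, so counting error was small beside the spread between boars. By boar name, the study's table of boars gives 7 of the 8 Duroc boars the opposite group and D5 alone the same. By read depth, though, the deepest Duroc libraries of that table are in its high group, as are the deepest here by label. These are D3 with 125576407 and D2 with 84446404 counted reads, where the other Duroc boars had 41358671 to 60236439. The numbers may therefore name different boars, and a direction in contrast (ii) is given as the deposited labels have it. L8, L13 and D2 stood apart for several chains, and several of the fold changes and correlations they bear on are given with and without them. The tissue carried its defining germ cell markers, with 465 to 2310 CPM of the protamine PRM1, where CPM is the TMM-normalized read count scaled to the size of the library. Of the markers of multiciliated cells, such as those lining the efferent ducts, MCIDAS ran from 0 to 0.0915 CPM, FOXJ1 from 0.449 to 3.98 CPM and GMNC from 0.366 to 3.06 CPM. In tissue RNA, fewer cells of a type and less RNA per cell cannot be told apart.

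In contrast (i), 3 of the 7 chains were lower in the boars labelled high, none was higher, and 4 did not pass the test. DNAH17, DNAH2 and DNAH1 fell, while DNAH10 was level and DNAH7, DNAH12 and DNAH14 had higher means in the high group without passing. Across all 12979 genes tested in this contrast, 20.7% passed in either direction (edgeR's quasi-likelihood test, adjusted p under 0.05), 15.8% as lower and 4.82% as higher. The median log2 fold change of the 7 chains was 0.00, beside 0.03 for all genes tested.

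DNAH17, an outer arm chain of the sperm tail, lies on chromosome 12 from 3485166 to 3590325 of Sscrofa11.1 in the RefSeq annotation. It stood at 181, 178, 255 and 227 CPM in L1 to L4. In L5 to L8 it stood at 141, 79.5, 97.0 and 47.2 CPM. Every low boar was above every high boar, with L3 highest and L8 lowest. The low boars averaged 210.5 ± 37.4 CPM and the high boars 91.2 ± 39.2 CPM (SD, n = 4 each). The log2 fold change of high over low was -1.18 (SE 0.28, quasi-likelihood adjusted p = 0.022 in edgeR), or 2.27-fold lower.

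DNAH2, a chain of the double-headed inner arm, lies on the same chromosome, from 52982217 to 53086744. Its levels were 153, 145, 236 and 176 CPM in L1 to L4 and 139, 85.2, 93.0 and 48.9 CPM in L5 to L8. The groups again did not overlap, but L5 came close to L2. The log2 fold change was -0.93 (SE 0.27, quasi-likelihood adjusted p = 0.0362 in edgeR), or 1.91-fold lower, from 177 ± 40.9 CPM (SD, n = 4) to 91.4 ± 36.9 CPM (SD, n = 4).

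DNAH1, a single-headed inner arm chain known from human infertility with malformed sperm tails, lies on chromosome 13 from 34455154 to 34544147. It measured 163, 151, 211 and 176 CPM in L1 to L4, and 136, 102, 104 and 64.5 CPM in L5 to L8. The order of the boars was much as for DNAH17, with L3 at the top, L8 at the bottom and L5 nearest to the low boars. The means were 175 ± 25.7 and 102 ± 29.2 CPM for low and high boars (SD, n = 4 each), and the log2 fold change was -0.76 (SE 0.21, quasi-likelihood adjusted p = 0.0293 in edgeR), or 1.70-fold lower.

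DNAH10, the partner of DNAH2 in the double-headed inner arm, lies on chromosome 14 from 29095480 to 29250255 and did not separate the groups. Its 252, 223, 265 and 266 CPM in the low boars and 303, 244, 239 and 211 CPM in the high boars overlapped fully. The log2 fold change was 0.00 (SE 0.14, quasi-likelihood adjusted p = 0.99 in edgeR), and the means were 252 ± 20.4 and 249 ± 38.8 CPM for low and high boars (SD, n = 4 each).

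The remaining single-headed inner arm chains, DNAH7 (chromosome 15, 99722278 to 99987348) and DNAH12 (chromosome 13, 39148160 to 39395266), had their means on the other side. DNAH7 measured 332, 287, 296 and 361 CPM in the low boars and 375, 372, 347 and 415 CPM in the high boars. L4 lay above L7, so these groups overlapped, and the log2 fold change of 0.25 (SE 0.12) had a quasi-likelihood adjusted p of 0.132 (edgeR). DNAH12 measured 240.3, 229, 225 and 266 CPM in the low boars and 307, 282, 276 and 391 CPM in the high boars. Here the groups did not overlap, L8 was highest, and the log2 fold change of 0.40 (SE 0.13) had a quasi-likelihood adjusted p of 0.0533 (edgeR). DNAH14, a less characterised heavy chain on chromosome 10 from 13048002 to 13389497, measured 253, 228, 207 and 288 CPM in the low boars and 313, 287, 306 and 380.0 CPM in the high boars. Only L4 and L6 overlapped, and the log2 fold change was 0.41 (SE 0.14, quasi-likelihood adjusted p = 0.0571 in edgeR).

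**Figure D1:**
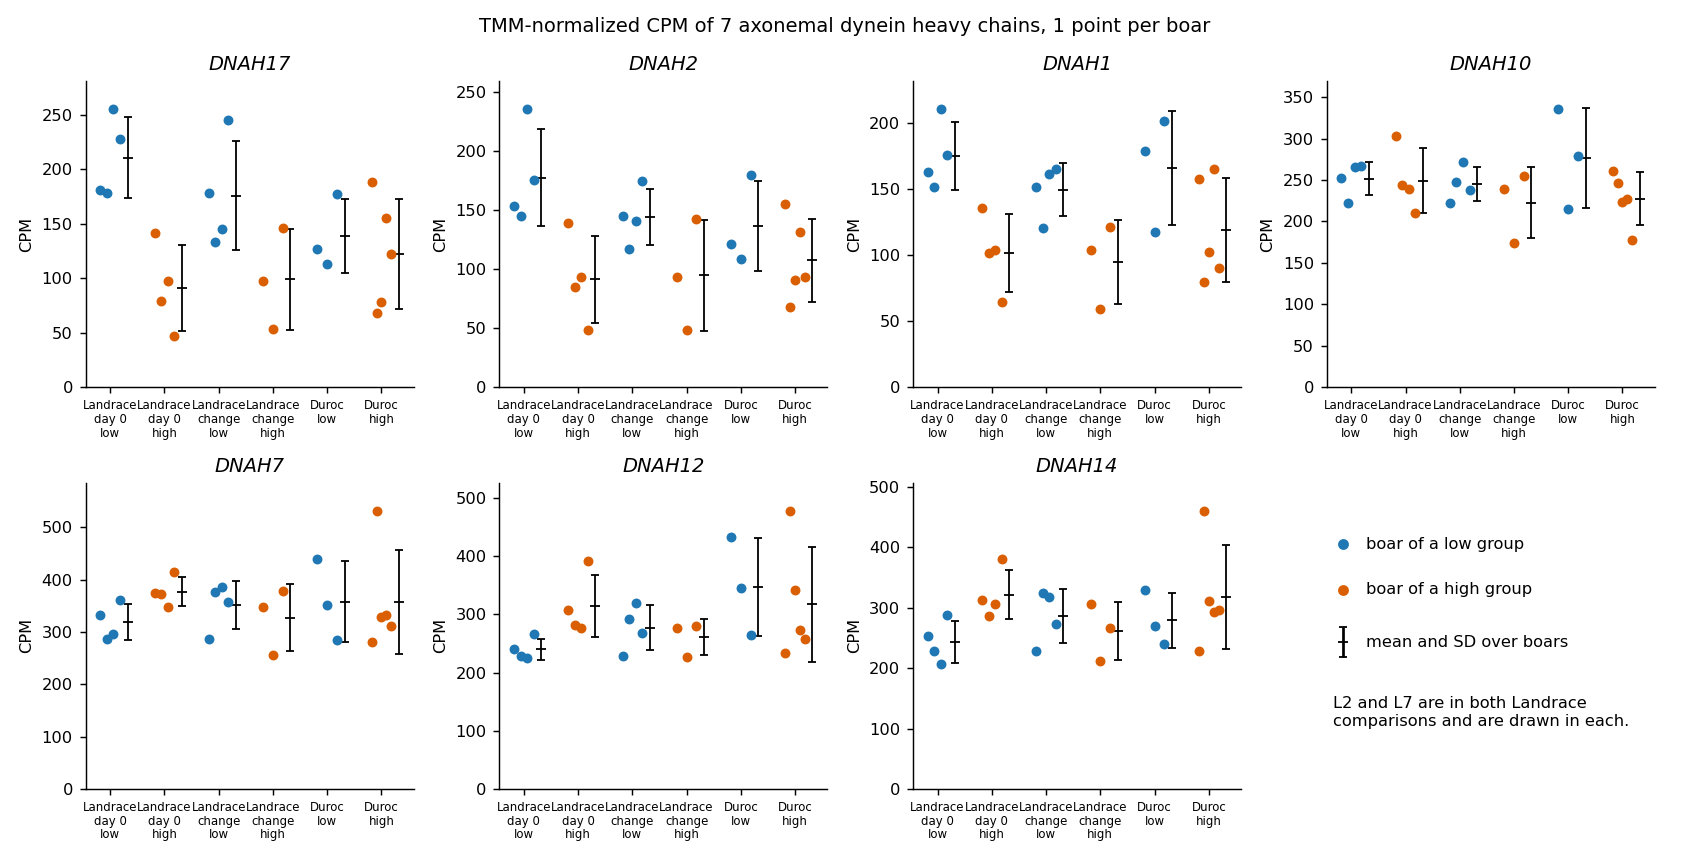
CPM (vertical axis, from 0) of the 7 chains in each boar, by breed and labelled group, with the mean and SD of each group beside its points. In contrast (i), the first pair of groups of each panel, the high boars lie below all low boars for DNAH17, DNAH2 and DNAH1 and above them for DNAH12, and the 3 boars L8, L13 and D2 give the lowest points for DNAH17.

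Groups did not overlap for 4 of the 7 chains in contrast (i), DNAH17, DNAH2, DNAH1 and DNAH12, beside 28.3% of all genes tested. For each of these 4, a two-sided exact permutation test of the mean log2 CPM over boars gave p = 0.0286. That is the smallest that the 70 assignments of 4 against 4 boars allow. Any gene without overlap gives it, so the test adds nothing to the count of such chains. The other 3 chains gave exact permutation p from 0.0571 to 0.857. These p-values belong to 28 such tests, 1 for each chain and comparison, and were not adjusted. With the likelihood ratio test of edgeR, the test named in the study's methods, 5 of the 7 chains passed, beside 26.4% of all genes. The chains added were DNAH12 (adjusted p = 0.0361 from the likelihood ratio test) and DNAH14 (adjusted p = 0.0387 from the likelihood ratio test), both higher in the high group.

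The calls changed when single boars were left out. Without L3, a low boar, and without L6, a high boar, no chain passed, and 1 of all genes tested passed in each of these fits. Without L3 the log2 fold changes were -1.13 for DNAH17, -0.82 for DNAH2 and -0.71 for DNAH1, with quasi-likelihood adjusted p of 0.0526, 0.0943 and 0.069 (edgeR). Without L6 they were -1.11, -0.89 and -0.75, with adjusted p of 0.0548, 0.0722 and 0.0621. Without L1, DNAH17 alone passed. Without L8, the boar with the lowest levels of these chains, DNAH17 (-0.96) and DNAH1 (-0.59) passed. DNAH2 (-0.72) then had a quasi-likelihood adjusted p of 0.0514 (edgeR). DNAH12 (0.30), DNAH14 (0.34) and DNAH7 (0.23) stayed higher without L8 and did not pass.

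Library measures and cell markers were compared between the same groups, beside the 20.7% of all genes that passed in this contrast. The share of all counted reads set aside for aligning to more than 1 place was 5.83 to 7.20% in the high boars and 7.53 to 7.92% in the low boars, without overlap. Of 9 spermatid markers tested, PRM1 (-0.70), TNP2 (-0.73) and TSSK6 (-1.41) fell in log2 fold change, none rose and 6 did not pass. The summed spermatid markers ran from 11667 to 15087 CPM in the high boars and from 9835 to 14147 CPM in the low boars. Of 4 peritubular markers tested, DES (-1.5) and MYH11 (-1.17) fell, and the 5 measured summed to 17.2 to 61.3 CPM in the high boars and 49.1 to 110.5 CPM in the low boars. Of 9 spermatocyte markers DMC1 (0.50) rose and of 6 spermatogonial markers DDX4 (0.52) rose, while none of the 7 Sertoli, 5 Leydig, 3 endothelial, 2 macrophage and 2 multiciliated markers tested passed. FOXJ1 averaged 1.38 CPM over the high and 2.47 CPM over the low boars, whose ranges did not overlap, without passing. By RefSeq, DNAH1, DNAH2 and DNAH17 spanned 89.0, 104.5 and 105 kb of the genome, DNAH10 spanned 155 kb, and DNAH12, DNAH7 and DNAH14 spanned 247, 265 and 341 kb, so the chains that fell had the shortest spans. Over all genes with a known span, 78.7% of those tested, the median log2 fold change was -0.32 under 10 kb, -0.13 from 10 to 30 kb, 0.17 from 30 to 100 kb and 0.15 over 100 kb, and 26.2%, 22.9%, 12.4% and 7.18% of these genes were called lower. DNAH1 falls in the bin from 30 to 100 kb and DNAH2 and DNAH17 in that over 100 kb, bins with medians of 0.17 and 0.15. The part of these measures in the results for the heavy chains was not tested.

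A ratio of counts within a library needs no scaling, and DNAH2 over DNAH10 compares the chains of 1 inner arm in each boar. In contrast (i) the ratio was 0.607, 0.652, 0.887 and 0.66 DNAH2 reads per DNAH10 read in L1 to L4, and 0.458, 0.349, 0.389 and 0.232 in L5 to L8. All low boars were above all high boars. The mean log2 ratio was lower in the high group by 2.0-fold, at -1.53 ± 0.42 (SD, n = 4) against -0.53 ± 0.24 (SD, n = 4). The two-sided exact permutation test gave p = 0.0286, or 0.114 after Benjamini-Hochberg adjustment over the 4 comparisons of this ratio. The raw p is the smallest that 4 against 4 boars allow, so complete separation in this contrast alone could not have passed after adjustment. In contrast (iii) the ratio was 0.389, 0.278 and 0.559 in L7, L13 and L15. It was 0.652, 0.472, 0.518 and 0.734 in L2, L9, L10 and L12, with overlap (exact permutation p = 0.143, adjusted 0.286). The difference of high and low mean log2 ratios was -0.58, or -0.33 without L13. In Duroc, D2 (0.274) and D3 (0.407) of the boars labelled high and D6 (0.36) of those labelled low had the lowest ratios, and neither the labelled groups (exact permutation p = 0.804, adjusted 0.804) nor the breeds (exact permutation p = 0.791, adjusted 0.804) passed.

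**Figure D2:**
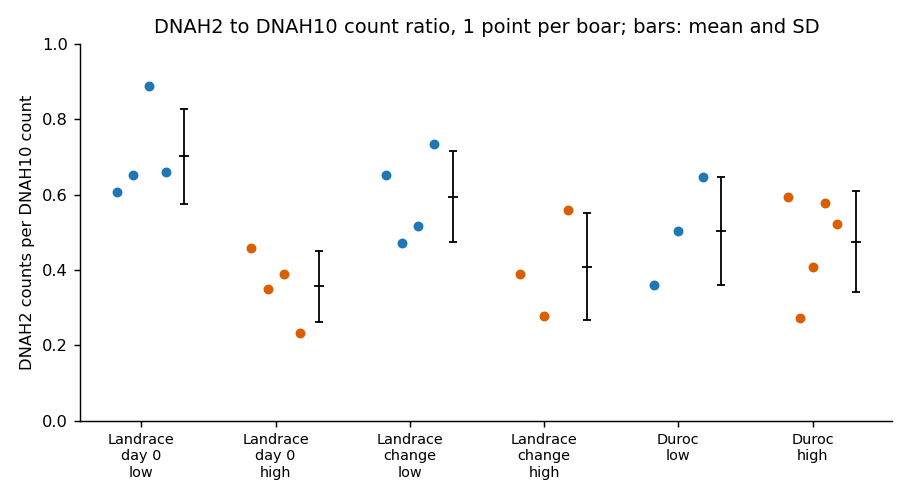
DNAH2 reads per DNAH10 read (vertical axis, from 0) in each boar, blue for low and orange for high groups, with the mean and SD of each group. In contrast (i) the high boars span 0.232 to 0.458 and the low boars 0.607 to 0.887, while the groups overlap in contrast (iii) and in Duroc.

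In contrast (iii), none of the 7 chains passed, as none of the 12824 genes tested did with edgeR's quasi-likelihood test (0% of all genes). The likelihood ratio test and DESeq2 called 64 and 123 of all genes and none of the chains. At an unadjusted p under 0.05, 2 of the 7 chains, DNAH17 and DNAH1, stood beside 19.8% of all genes tested, and groups overlapped for all 7 chains, where they did not overlap for 16.2% of all genes. The median log2 fold change of the chains was -0.14, beside 0.00 for all genes tested.

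The largest differences were those of DNAH17, DNAH1 and DNAH2, each with a lower mean in the boars with a high change. DNAH17 measured 97.0, 53.8 and 146 CPM in L7, L13 and L15, and 178, 133, 146 and 245 CPM in L2, L9, L10 and L12. L13 was lowest by far and L15 lay among the low boars, and the log2 fold change of -0.82 (SE 0.31) had a quasi-likelihood adjusted p of 0.24 (edgeR). DNAH1 measured 104, 59.6 and 121 CPM in the high and 151, 120.4, 162 and 165 CPM in the low boars, a log2 fold change of -0.65 (SE 0.23, quasi-likelihood adjusted p = 0.24 in edgeR). DNAH2 measured 93.0, 48.3 and 143 CPM in the high and 145, 117, 141 and 175 CPM in the low boars, with a log2 fold change of -0.60 (SE 0.30, quasi-likelihood adjusted p = 0.279 in edgeR). L15 exceeded a low boar for each of the 3 chains.

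The other chains differed less between these groups. DNAH10 measured 239, 174 and 255 CPM in the high and 223, 248, 272 and 238 CPM in the low boars. DNAH7 ran from 257 to 379 CPM in the high and from 287 to 386 CPM in the low boars. DNAH12 ran from 226 to 281 CPM and from 229 to 319.8 CPM, and DNAH14 from 211 to 306 CPM and from 228 to 325 CPM, in the high and low boars. L13 was the lowest high boar for all 4, and the log2 fold changes lay between -0.14 and -0.09, with adjusted p from 0.624 to 0.756 (edgeR's quasi-likelihood test).

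Without L13, the log2 fold changes in contrast (iii) were -0.51 for DNAH17, -0.39 for DNAH1 and -0.27 for DNAH2, and those of DNAH10 (0.032), DNAH7 (0.066), DNAH12 (0.026) and DNAH14 (0.020) changed sign. Contrasts (i) and (iii) share L2 and L7, so the side by side values are not independent. Without both boars, the log2 fold changes in contrast (iii) were -0.82 for DNAH17, -0.74 for DNAH1 and -0.61 for DNAH2, with none past the threshold. In contrast (i) they were -1.33, -0.88 and -1.07, all past it.

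In contrast (iii) the summed spermatid markers ran from 6893 to 12191 CPM in the high boars and from 11246 to 14474 CPM in the low boars, and the 3 measured multiciliated markers summed to 0.815 to 2.77 CPM and 4.22 to 5.76 CPM, without overlap. No marker passed in this contrast. Their part in the values of the heavy chains was not tested.

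**Figure D3:**
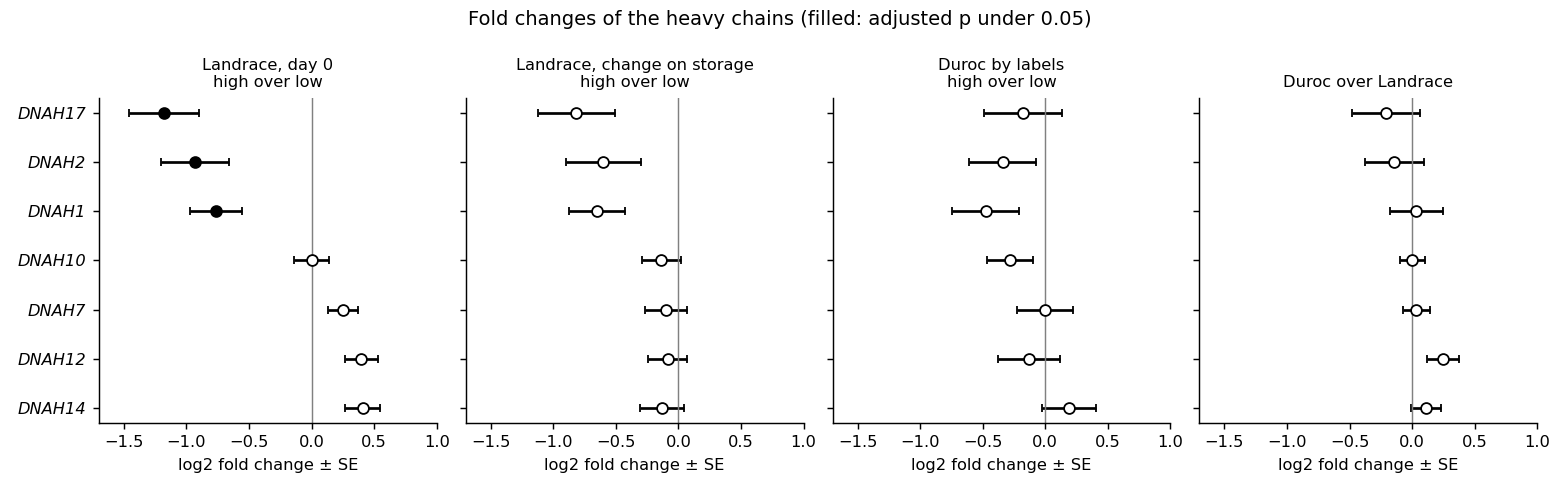
Log2 fold change (horizontal axis) with its SE for the 7 chains in the 4 comparisons, filled where the adjusted p was under 0.05. The 3 filled points are DNAH17, DNAH2 and DNAH1 in contrast (i), at -1.18, -0.93 and -0.76, and no chain passed in the other comparisons.

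In Duroc by the labels, contrast (ii), none of the 7 chains passed, nor did any of the 13043 genes tested (0% of all genes) with edgeR's quasi-likelihood test, the likelihood ratio test or DESeq2. None of the chains had an unadjusted p under 0.05, beside 1.21% of all genes tested. DNAH17 measured 188, 68.3, 78.3, 155 and 122 CPM in D1 to D5, labelled high, and 127, 113 and 177 CPM in D6, D7 and D9, labelled low. DNAH2 measured 155, 67.6, 91.1, 132 and 93.0 CPM in the boars labelled high and 121, 108 and 179.8 CPM in those labelled low. The high group held both ends of the DNAH17 range, with D1 at the top and D2 at the bottom. DNAH1 had the largest difference, with 158, 79.8, 102, 165 and 90.6 CPM against 179, 118 and 202 CPM, a log2 fold change of -0.48 (SE 0.27, exact permutation p = 0.161). The other chains overlapped too, with log2 fold changes of -0.28 for DNAH10, -0.13 for DNAH12, 0.00 for DNAH7 and 0.19 for DNAH14.

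D2 was also the highest Duroc boar for DNAH7 (532 CPM, where the other 7 ran from 281 to 439 CPM), DNAH12 (478 CPM) and DNAH14 (461 CPM). Its DNAH10, at 247 CPM, lay within the Duroc range of 178 to 336 CPM. Without D2, the log2 fold changes by label were -0.03 for DNAH17, -0.21 for DNAH2, -0.36 for DNAH1 and -0.33 for DNAH12. Those of DNAH10, DNAH7 and DNAH14 were then -0.31, -0.19 and 0.02. Without D5, the labels and the table of boars by name give the same split with the group names exchanged. By read depth, the deepest libraries are in the high group of both. The values without D5 were -0.18 for DNAH17, -0.29 for DNAH2 and -0.39 for DNAH1, with none past the threshold.

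Between the breeds, none of the 7 chains passed, beside 2.88% of the 13126 genes tested (edgeR's quasi-likelihood test), 1.35% as higher and 1.53% as lower in Duroc. None of the chains had an unadjusted p under 0.05, against 12.3% of all genes. DNAH17 had a lowest, median and highest level of 47.2, 146 and 255 CPM in Landrace and of 68.3, 125 and 188 CPM in Duroc. DNAH10 ran at 174, 248 and 303 CPM in Landrace and at 178, 237 and 336 CPM in Duroc. DNAH12 showed the largest difference, with 225, 276 and 391 CPM in Landrace and 234, 308 and 478 CPM in Duroc. Its log2 fold change of Duroc over Landrace was 0.25 (SE 0.13, quasi-likelihood adjusted p = 0.458 in edgeR), or 0.15 without D2. The ranges of the breeds overlapped for each of these 3 chains, and the other 4 had log2 fold changes between -0.14 and 0.11. Of the cell markers, 1 of 6 spermatogonial markers tested, KIT (-1.40), fell in Duroc, and 1 of 7 Sertoli markers, GATA4 (0.74), rose. The medians of these lists were 0.05 and 0.14, and no other cell marker passed.

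The heavy chains DNAH5, DNAH9 and DNAH11, which build the outer arms of motile cilia in the airway and other epithelia, were measured as a further list. DNAH11 fell in Duroc, where its lowest, median and highest levels were 3.61, 4.45 and 6.10 CPM, against 6.6, 9.84 and 13.8 CPM in Landrace. Every Duroc boar was below every Landrace boar, and the log2 fold change was -1.15 (SE 0.14, quasi-likelihood adjusted p = 2.68e-05 in edgeR). DNAH5 had a higher mean in Duroc, with 27.6 ± 7.24 CPM (SD, n = 8) against 18.9 ± 5.38 CPM (SD, n = 13) and a quasi-likelihood adjusted p of 0.0906 (edgeR). DNAH9 was at 24.7 ± 2.75 CPM (SD, n = 8) in Duroc and 24.7 ± 5.98 CPM (SD, n = 13) in Landrace. None of these 3 chains passed in contrasts (i), (ii) or (iii).

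The intermediate and light chains bind cargo and regulate the motor, and 13 of the 17 listed were tested in contrast (i). DNAI3 (0.52) and DYNLL2 (0.47) rose, DNAI2 (-1.02) fell and 10 did not pass, around a median log2 fold change of 0.12 beside 0.03 for all genes tested, of which 20.7% passed. These 3 of 13 are near that share. DNAI2, an outer arm intermediate chain, ran from 18.7 to 30.3 CPM in the high boars and from 38.2 to 65.5 CPM in the low boars. DNAI3, an intermediate chain of the inner arm, ran from 231 to 287 CPM in the high boars and from 166 to 180.3 CPM in the low boars. Their groups did not overlap, with DNAI2 lower and DNAI3 higher in the high group. DYNLL2, a light chain shared with other motors, ran from 124 to 183 CPM in the high boars and from 103 to 123 CPM in the low boars.

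Of the 3 docking complex genes tested, which anchor the outer arm to its doublet, none passed in any comparison. Assembly factors fold and pre-assemble the arms in the cytoplasm, and 17 of the 20 listed were tested. In contrast (i) DNAAF8 (-1.35), RUVBL2 (-1.22), DNAAF5 (-1.18) and ZMYND10 (-0.65) fell, none rose and 13 did not pass, with a list median of 0.01. These 4 of 17 stand beside 15.8% of all genes called lower. DNAAF5 averaged 0.860 ± 0.312 CPM over the high and 1.98 ± 0.401 CPM over the low boars (SD, n = 4 each), near the filter on low counts. DNAAF8 averaged 24.0 ± 8.48 CPM over the high and 62.4 ± 8.07 CPM over the low boars (SD, n = 4 each). Among the 9 cytoplasmic dynein genes, which carry cargo and serve transport within the growing tail, DYNC1H1 (-1.14) and DYNC2I2 (-1.03) fell, DYNC1LI2 (0.42) rose and 6 did not pass, beside 20.7% of all genes passing, and the list median was 0.17 against 0.03 for all genes. None of the genes in these lists passed in contrasts (ii) or (iii). Between the breeds, the light chain related NME8 (0.67) rose and the assembly factor DNAAF10 (-0.32) fell in Duroc, with quasi-likelihood adjusted p of 0.0487 and 0.0427 (edgeR).

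**Figure D4:**
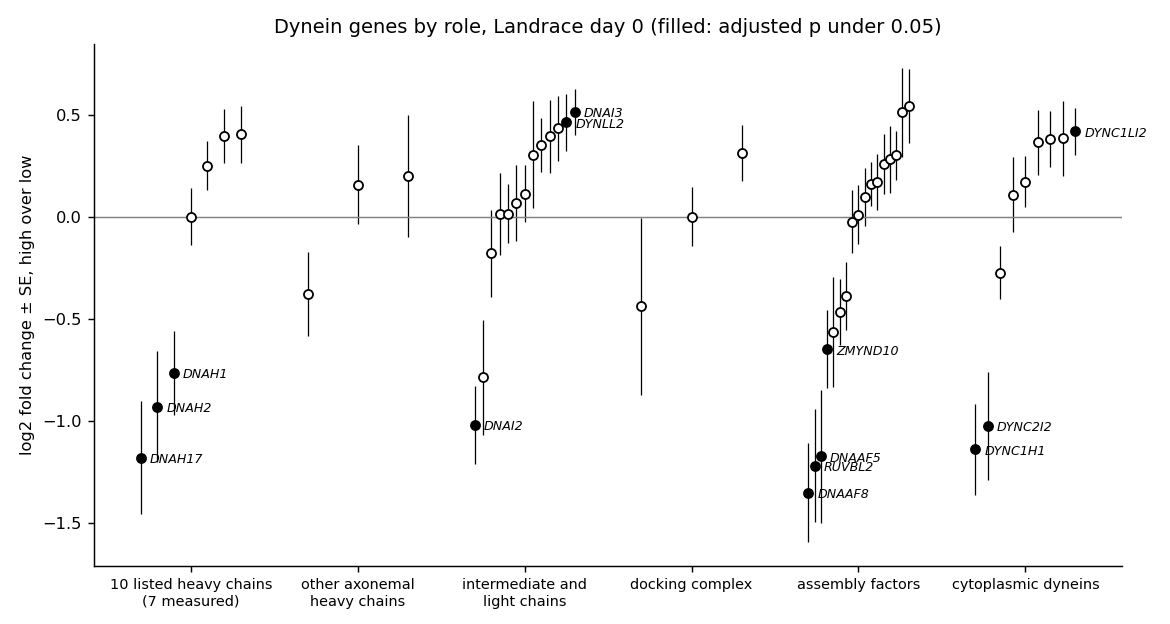
Log2 fold change of high over low in contrast (i) (vertical axis) with its SE for each dynein gene tested, grouped by role, filled and named where the adjusted p was under 0.05. Among the 52 genes drawn, 10 filled points lie below 0 and 3 above it, beside 15.8% and 4.82% of all genes tested.

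Over the 21 boars the chains fell into sets that varied together. Breed means were subtracted from log2 CPM, and each of the 21 pairs of chains was correlated across boars and tested by permutation with 100000 resamples. DNAH17 and DNAH2 were correlated with Pearson's r = 0.971 and Spearman's rho = 0.979 (permutation p = 1e-05 for each, the smallest these resamples can give, adjusted 3.5e-05 and 4.2e-05). Without L8 and L13, the boars farthest from the median of DNAH17, r was 0.950, and within the breeds it was 0.982 over 13 Landrace and 0.931 over 8 Duroc boars. DNAH12 and DNAH14 gave r = 0.874 and rho = 0.812 (permutation p = 1e-05 and 2e-05, adjusted 3.5e-05 and 7e-05). Its r was 0.779 without L8 and D2, 0.939 in Landrace and 0.835 in Duroc. Between the sets, DNAH17 and DNAH12 gave r = -0.512 and rho = -0.521 (permutation p = 0.0177 and 0.0169, adjusted 0.0412 and 0.0394). Here r was -0.609 without L8 and L13, -0.433 in Landrace and -0.763 in Duroc. This was the most negative pair, and the other 8 pairs between the sets ran from r = -0.471 to -0.178 without passing (permutation, adjusted p from 0.0637 to 0.463). By rho, DNAH17 and DNAH14 also passed (-0.495, permutation p adjusted 0.0454). All these levels share the depth and normalization of their library.

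DNAH1 joined DNAH17 (r = 0.918) and DNAH2 (r = 0.958), and DNAH7 joined DNAH12 (r = 0.914) and DNAH14 (r = 0.902), each with a permutation p of 1e-05. The r of DNAH1 with DNAH17 and DNAH2 became 0.858 and 0.926 without L8 and L13. That of DNAH7 with DNAH12 and DNAH14 became 0.909 and 0.838 without L13 and D2. DNAH10 was correlated with DNAH1 (r = 0.686, permutation p adjusted 0.00156) and DNAH2 (r = 0.585, adjusted 0.0143), which became 0.533 without L13 and D5 and 0.364 without L8 and L13. With DNAH17 its r was 0.464 (adjusted 0.0637), or 0.199 without L8 and L13, while its rho of 0.504 passed (permutation p adjusted 0.0444). With DNAH7, DNAH12 and DNAH14 its r was 0.377, 0.277 and 0.137 and did not pass (adjusted 0.128, 0.26 and 0.552), or 0.134, 0.060 and -0.055 without L13 and D5. DNAH10 also varied least, from 174 to 336 CPM over all boars, a coefficient of variation of 15.2%, while DNAH17 varied most, from 47.2 to 255 CPM and with a coefficient of variation of 42.2%.

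The boars lowest for DNAH17 were L8, L13 and D2, 1 each from contrasts (i), (iii) and (ii). L8 and D2 were the highest boars of their breeds for DNAH7, DNAH12 and DNAH14, whereas L13 was the lowest Landrace boar for DNAH7 and near the bottom for DNAH12 and DNAH14. The DNAH12 to DNAH17 count ratio was chosen after the values were seen and is given without a test. It ran from 0.881 in L3 to 8.30 in L8, with 7.0 in D2, 4.37 in D3 and 4.2 in L13. The share of reads aligned to more than 1 place was 5.83% in L8, 5.98% in L13 and 6.0% in D2, the lowest 3 values of the 21 boars, followed by 6.62% and reaching 8.28%. Their depths of 97059970, 81320175 and 84446404 counted reads lay inside the range of 41358671 to 125576407 over all boars. In D3 the share aligned to more than 1 place was 7.14%. The part of this share in the levels of the heavy chains was not tested.

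**Figure D5:**
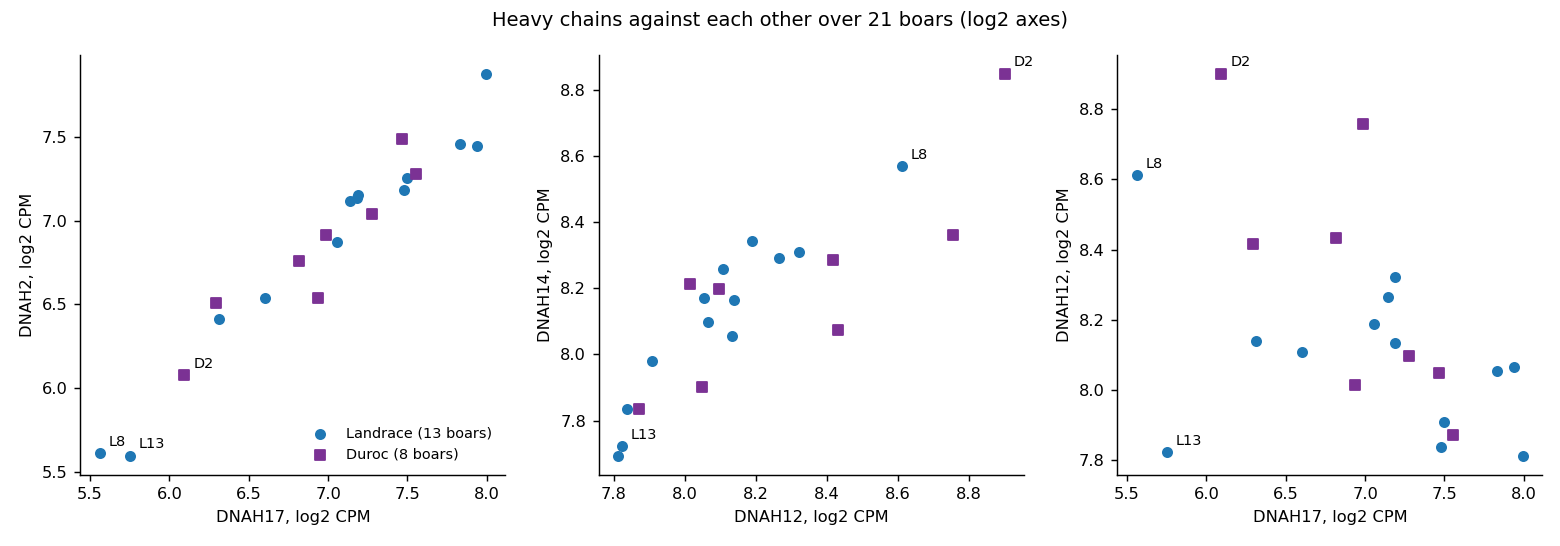
Log2 CPM of DNAH2 against DNAH17, DNAH14 against DNAH12 and DNAH12 against DNAH17, 1 point per boar, with breeds by colour and shape. DNAH2 follows DNAH17 (r = 0.971 after subtracting breed means) and DNAH14 follows DNAH12 (0.874), while DNAH12 runs against DNAH17 (-0.512), with L8 and D2 at the upper left and L13 at the lower left of the last panel.

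Genes outside the family with the most similar levels were sought by the same correlation over the 21 boars, among named genes tested between the breeds. For DNAH17 these were KATNIP (r = 0.991), a cilium associated gene, BSN (0.979) and PIP5K1C (0.978). DNAH2 was closest to CFAP46 (0.966), a component of the central pair apparatus of the axoneme, to PANK4 (0.965) and to MLLT1 (0.964). DNAH1 was closest to RNF40 (0.943), GID8 (0.943) and UBR4 (0.942). In the other set, DNAH12 was closest to PSME4 (0.965), MYO9A (0.961) and MEF2A (0.944), DNAH14 to FAM161A (0.961), SPATA6L (0.947) and SSX2IP (0.945), and DNAH7 to DPY19L2 (0.923), a gene of acrosome formation, FEM1C (0.915) and NSUN7 (0.915). The likeness was lower for DNAH10, with CDK5RAP2 (0.801), CFAP263 (0.801) and PAPPA2 (0.796). These are the highest of 11046 correlations for each chain and carry no test.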

How the data were processed

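The authors extracted testis RNA, prepared poly(A) libraries with a stranded kit, trimmed reads with Trimmomatic 0.36, aligned them with STAR to Sscrofa 11.1, and counted them per Ensembl gene with HTSeq in its reverse stranded mode. The deposited values are raw counts without normalization, 1 file per boar. The 5 HTSeq rows that name no gene held 29.4 to 39.0% of counted reads and were left out. Symbols came from an identifier table that named 14857 of 25880 identifiers, and coordinates from RefSeq by symbol.

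The analysis used edgeR 4.0.16 and DESeq2 1.42.0 under R 4.3.3. A gene was kept where 4 or more libraries (8 for breed) reached 1 CPM, and libraries were TMM-normalized. The test was the quasi-likelihood test of edgeR, with p-values adjusted over all genes by Benjamini-Hochberg and a threshold of 0.05. SEs came from the log2 fold change and its statistic. Printed CPM were normalized over all 21 boars, and log2 CPM used a prior count of 2. Steps were tested on simulated data. Each boar gave 1 library, and boars of a group differed by far more than sampling noise (chi-square per degree of freedom 45.9 to 288).

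The chains, lists and tests were chosen with earlier results of these data known. All 10 chains are named, with the genes of other lists that passed and the 3 most similar genes for each chain. No gene lengths were used, so levels were not compared between genes.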

Additional observations from a re-analysis of the deposited data

Results flagged for a closer look

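In 35 sets of values, 1 per chain and group of 4 to 10 boars, the highest or lowest boar was compared with the rest by Dixon's ratio, which marks about 1 in 20 sets by chance, or 1.75 here. It marked 2, both in boar D2. DNAH7 stood at 532 CPM in D2, where the other 4 Duroc boars labelled high ran from 281 to 333 CPM. DNAH14 stood at 461 CPM in D2, where the other 7 Duroc boars ran from 228 to 329 CPM. No difference between D2 and the others was tested further.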

How the results depend on the processing

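In contrast (i), 3 chains passed. Both the likelihood ratio test and DESeq2 passed 5, adding DNAH12 and DNAH14 as higher, relative log expression normalization passed 4, adding DNAH12 (adjusted p = 0.0483 from edgeR), and the fit of all 13 Landrace libraries passed 1, DNAH17. Leaving out 1 boar at a time passed 0 to 3 chains, 0 without L3 or L6 and 1 without L1. Calls over all genes moved as well, with 2682 in the main run, 3427 by the likelihood ratio test and 3922 by DESeq2. They were 2866 with relative log expression normalization and 2217 in the fit of all Landrace libraries. Without L1, 966 of all genes passed, without L8 1228, and without L3 or L6 1 each. In contrasts (ii) and (iii) and between the breeds, 0 chains passed under each alternative run. The log2 fold changes of DNAH17, DNAH2 and DNAH1 in contrast (i) kept their sign in every fit, from -1.47 to -0.96, -1.20 to -0.72 and -0.93 to -0.59 with 1 boar left out. No paired analysis was possible because boar numbers name different animals and no label pairs them.

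Sign changes occurred in values that did not pass. In contrast (i) DNAH10 was -0.072 without L2 and L7, and -0.099 to 0.091 with 1 boar left out. In contrast (iii) the values with 1 boar left out ran from -0.25 to 0.032 for DNAH10, -0.22 to 0.066 for DNAH7, -0.17 to 0.026 for DNAH12 and -0.27 to 0.020 for DNAH14. In contrast (ii) they ran from -0.41 to 0.037 for DNAH17, -0.19 to 0.17 for DNAH7 and -0.33 to 0.056 for DNAH12. Between the breeds, DNAH10 was -0.0032 with DESeq2 and with relative log expression normalization, -0.013 with any gene counted, -0.0061 with edgeR's own filter and -0.016 with the day 0 Landrace boars only, where DNAH1 was -0.0029. With 1 boar left out, DNAH10 ran from -0.076 to 0.063, DNAH1 from -0.067 to 0.12, DNAH7 from -0.070 to 0.080 and DNAH14 from -0.0017 to 0.16. The cause was not tested.

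The DNAH17 to DNAH8 ratio was not run, since DNAH8 was not analysed here. A check by gene span over all genes was void, because 78.7% of the genes tested in contrast (i) had a span by symbol, under the minimum share set for it, so the values by span are a description. GC content was not run. With 3 to 5 boars a group, the spread between boars limits what can be seen, not the depth.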
